A study of Mus musculus with 6 samples.

Results

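The 7 genes described are paralogs of core ribosomal protein genes, namely *Rpl39l*, *Rpl10l*, *Rpl3l*, *Rpl22l1*, *Rps27l*, *Rpl36al* and *Rpl7l1*, out of 22380 gene identifiers measured in mouse embryonic stem cells (mESC). They were found by their gene symbols, and the group was selected on a measured value: *Rpl39l* had the lowest log2 fold change of all 10524 genes tested. For *Rpl39l* the difference between groups is therefore a description, and no test is given for it. All 7 paralogs passed the filter on low values, a mean of at least 10 normalized counts over the lines, although *Rpl39l* and *Rpl3l* lay under 10 in the mean of the *Tet iTKO* lines.

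RNA was sequenced with the full-length Smart-Seq2 protocol from 6 mESC lines, 3 *Ctrl* and 3 *Tet iTKO*, which the authors derived from different embryos. *Ctrl* lines carried *CreERT2*, a tamoxifen-activated recombinase driven by the human ubiquitin C promoter, and a *Rosa26* reporter of H2B-EGFP and GPI-mCherry that a STOP cassette silences until Cre acts. *Tet iTKO* lines carried both transgenes and also fl/fl alleles of *Tet1*, *Tet2* and *Tet3*. Lines of both genotypes were grown in 2i medium on feeder fibroblasts. They received 1 µM 4-hydroxytamoxifen, named tamoxifen in the sample titles, for 2.5 days and were cultured for 4 more days. *Ctrl* and *Tet iTKO* thus shared the drug and the recombinase. At day 6.5, live cells positive for EGFP and CD326 and negative for the feeder marker CD90.2 (Thy1.2) were sorted. The paper's figure legend for these libraries also names SSEA1 as a positive sort marker. The comparison asks how the levels of the paralogs differ after acute loss of the 3 TET enzymes.

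TET enzymes oxidise the methyl group of 5-methylcytosine, which in mammals lies mostly in CG dinucleotides, and thereby open a route to demethylation. A ribosome holds one copy of most ribosomal proteins, and nearly all mammalian ribosomal proteins are made from a single active gene together with many processed pseudogenes. A few have a second functional gene, a paralog, which is often used in particular tissues. *Rpl39l* and *Rpl10l* are known from male germ cells, *Rpl3l* from heart and skeletal muscle, *Rpl22l1* from blood cell development alongside *Rpl22*, and *Rps27l* as a target of p53, while *Rpl7l1* is the homolog of a yeast assembly factor of the large subunit.

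*Rpl39l* and its parent *Rpl39* encode a small protein of the peptide exit tunnel, and their coding sequences are shown because the measurement depends on telling both genes apart. The coding sequences in the GENCODE M21 transcripts of GRCm38 have 156 bases, or 51 codons before the stop, in either gene. Capitals mark the bases at which the coding sequences differ.
Rpl39l: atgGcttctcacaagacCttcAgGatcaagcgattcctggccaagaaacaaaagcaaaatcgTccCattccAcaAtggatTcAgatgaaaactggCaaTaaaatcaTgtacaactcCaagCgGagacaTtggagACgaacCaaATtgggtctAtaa
Rpl39: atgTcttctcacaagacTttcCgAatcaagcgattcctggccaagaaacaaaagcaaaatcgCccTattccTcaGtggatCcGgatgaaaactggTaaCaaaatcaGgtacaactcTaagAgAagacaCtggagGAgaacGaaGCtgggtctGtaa
They differed at 23 of 156 bases, 16 of them at the last position of a codon, in 21 codons, and the identity was 85.3%. The longest stretch of identical bases was 38, shorter than a read of 50 bases. In the whole *Rpl39l* transcript of 805 bases, none of the 756 windows of 50 bases occurred in a transcript of another annotated gene, so a read in it could align uniquely.

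The promoters of *Rpl39l* and *Rpl10l* are shown because these paralogs had the lowest fold changes and because TET enzymes act at CG. Each run holds the 250 bases before the RefSeq transcription start, with every CG in capitals. The *Rpl39l* window lies on the plus strand at chr16:10169978-10170227 and the *Rpl10l* window on the minus strand at chr12:66284402-66284651, both of GRCm38.p6.
Rpl39l promoter: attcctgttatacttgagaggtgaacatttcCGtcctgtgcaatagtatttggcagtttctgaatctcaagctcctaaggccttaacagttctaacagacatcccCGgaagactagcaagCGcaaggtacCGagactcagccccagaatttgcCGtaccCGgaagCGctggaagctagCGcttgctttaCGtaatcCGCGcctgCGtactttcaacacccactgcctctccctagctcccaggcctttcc
Rpl10l promoter: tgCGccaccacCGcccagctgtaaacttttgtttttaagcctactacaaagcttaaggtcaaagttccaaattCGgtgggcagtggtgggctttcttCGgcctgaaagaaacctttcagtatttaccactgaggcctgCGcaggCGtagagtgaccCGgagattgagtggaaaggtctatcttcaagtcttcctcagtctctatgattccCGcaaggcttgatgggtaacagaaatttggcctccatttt
The *Rpl39l* window held 12 CG, more than 66.5% of 32851 RefSeq promoters of the same length, and the *Rpl10l* window held 8, more than 57.0% of them. The median promoter held 6, and 92.1% held at least 1. The windows of the other paralogs held 2 CG in *Rpl3l*, 23 in *Rpl22l1*, 18 in *Rps27l*, 36 in *Rpl36al* and 13 in *Rpl7l1*. A relation between the number of CG and the fold changes was not tested. Methylation was not measured in these libraries.

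The values are normalized counts, that is, reads per gene divided by a library's size factor and rounded to whole numbers by the authors. They summed to between 3.96 M and 4.22 M per library, and the reads behind them were estimated at 3.66 M to 5.10 M. The 10 mESC markers were each at 290 or more in every line, with sums of 23790 to 24373 in *Ctrl* and 20227 to 21283 in *Tet iTKO*. They did not move alike: 4 were lower and 3 higher at a limma adjusted p under 0.05, beside 18.4% and 16.4% of all genes tested. *Dppa5a*, the highest of them, fell in the mean from 11230 to 8573, while *Epcam* rose from 763 to 1043. After the correction on GC content and length described below, 3 were lower and 2 higher, beside 19.1% and 9.34% of all genes. The log2 fold change of *Dppa5a*, -0.39 as deposited, then turned sign to 0.105 (limma adjusted p = 0.022), so its fall depended on the correction. The 13 feeder fibroblast markers summed to 283 to 306 in *Ctrl* and 496 to 564 in *Tet iTKO*, 9 of them had a mean under 10, and *Postn* and *Twist2* were at 3 or less in every line. Of the 4 feeder markers tested, 3 rose in *Tet iTKO* (*Col1a1*, *Col1a2* and *Col3a1*), and 2 after the same correction. The other, *Thy1*, the gene of the sort marker CD90.2, did not pass, at 30, 46 and 41 in *Ctrl* against 47, 35 and 23 in *Tet iTKO*. The part of feeder RNA in the differences below was not tested. Whole-gene values do not show the floxed exons: *Tet1* had 696, 682 and 716 normalized counts in *Ctrl*, against 787, 895 and 753 in *Tet iTKO*, *Tet2* 249, 170 and 230 against 233, 268 and 211, and *Tet3* 28, 13 and 13 against 10, 3 and 3.

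Of the 6 paralogs other than *Rpl39l*, 5 were lower in *Tet iTKO* at an adjusted p under 0.05 and none was higher. Across all genes tested, 18.4% were lower and 16.4% higher at this threshold. With libraries rescaled to the same total, 1428 of 3752 called genes were lower, in place of 1934 of 3665. In 5 of these 6 paralogs all *Tet iTKO* values were under all *Ctrl* values, which held for 22.9% of all genes tested. The median log2 fold change of the 6 was -0.77, beside 0.01 for all genes tested. In bulk RNA, fewer cells that express a gene and less RNA per cell cannot be told apart.

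**Figure D1:**
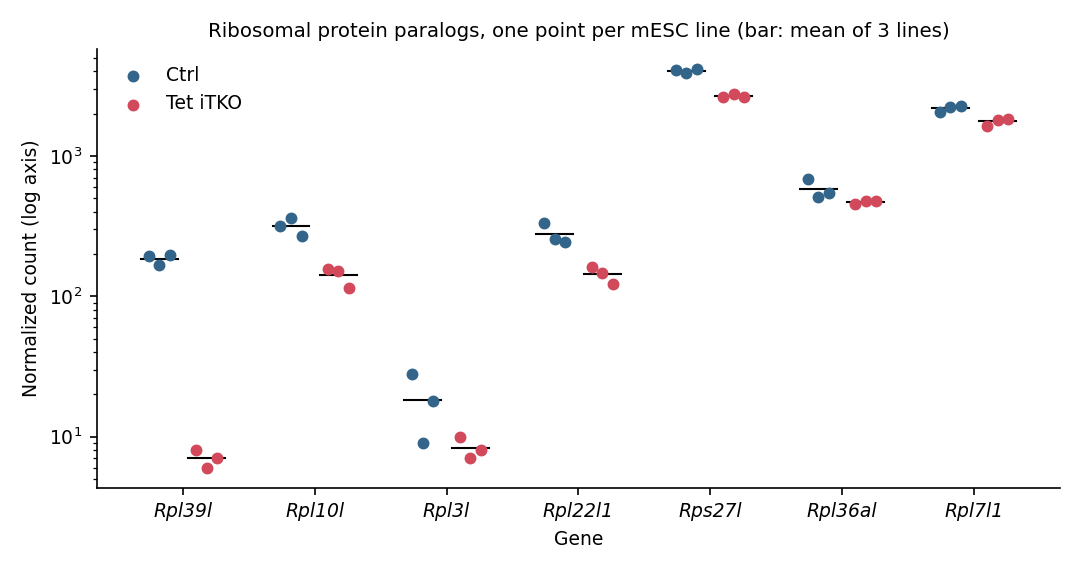
Normalized counts of the 7 paralogs on a log axis, 1 point per mESC line (blue *Ctrl*, red *Tet iTKO*), with a bar at the mean of 3 lines. *Rpl39l* lies at 166 to 197 in *Ctrl* and 6 to 8 in *Tet iTKO*, and only *Rpl3l* has overlapping groups.

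Fold changes depended on the transcript. Across 10457 genes with an annotated length, the log2 fold change had a Spearman rho of 0.321 with transcript length and 0.252 with GC content, a description across genes, which are not independent replicates. Short transcripts thus had the lower values, and ribosomal protein genes are short. A loess correction of each library on both properties was therefore computed for these 10457 genes. The other genes tested kept their uncorrected values and are counted in the corrected shares of all genes. The corrected value is given below for each paralog, for each ratio to a parent and, as counts, for the gene lists. A change that short genes share and a technical trend on length cannot be told apart here. After correction 2 of the 6 paralogs, *Rpl10l* and *Rpl7l1*, remained lower, while 19.1% of all genes tested were lower and 9.34% higher. The median of the 6 was then -0.33, beside -0.06 for all genes.

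**Figure D2:**
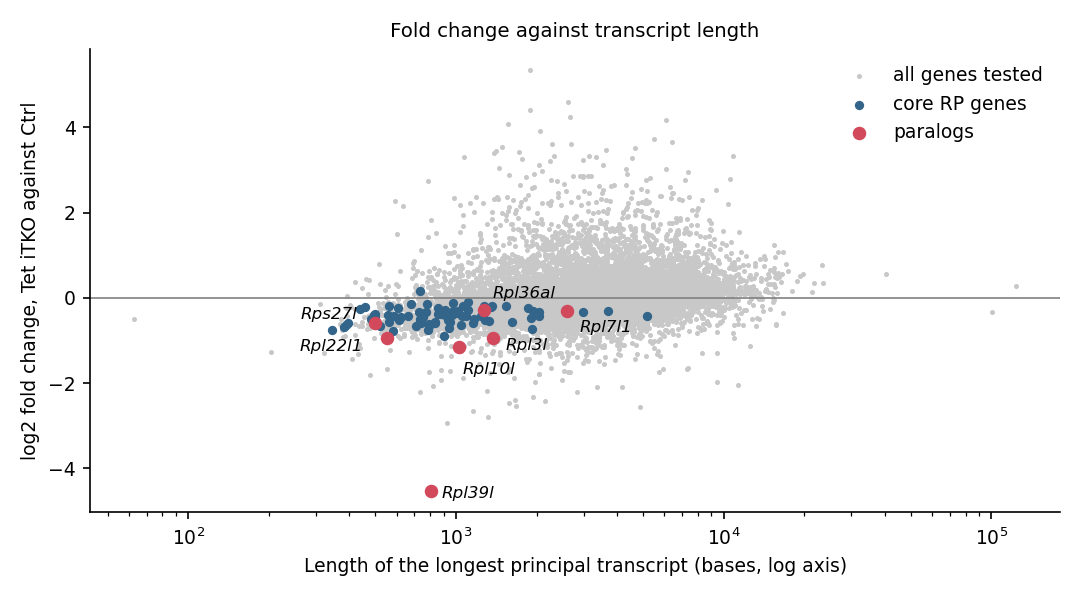
log2 fold change (*Tet iTKO* against *Ctrl*) of each gene tested against the length of its longest principal transcript on a log axis. The paralogs (red) and core ribosomal protein genes (blue) lie mostly among the short transcripts, under the median length of 2960 bases, and *Rpl39l* lies apart at -4.54.

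*Rpl39l* (ENSMUSG00000039209.6) lies on chromosome 16 from 10170226 to 10174911, on the plus strand of GRCm38. It had 192, 166 and 197 normalized counts in 3 *Ctrl* lines, against 8, 6 and 7 in 3 *Tet iTKO* lines. Every *Tet iTKO* line was far below every *Ctrl* line, and the lines within a group lay close together. The means were 185 ± 16.6 (SD, n = 3) and 7.0 ± 1.0 (SD, n = 3), so that 3.78% of the *Ctrl* level was left. The log2 fold change was -4.54 with a standard error of 0.30 and -4.05 after correction. The genes next to it by fold change among those with a mean of at least 50 were *Khdc3* at -2.53 and *Rec114*, a meiotic recombination gene, at -1.94. Over all genes tested, *Ptprcap* came next at -2.93, its normalized counts being 39, 41 and 41 in *Ctrl* lines and 3, 7 and 4 in *Tet iTKO* lines.

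*Rpl10l* (ENSMUSG00000060499.6), an intronless copy of *Rpl10*, encodes a large-subunit protein that replaces RPL10 during male meiosis, when the X chromosome is silent. It lies on chromosome 12 from 66283379 to 66284401, on the minus strand. Its normalized counts were 318, 360 and 270 in *Ctrl* and 157, 152 and 115 in *Tet iTKO*. The groups did not overlap, and the highest *Tet iTKO* line had 157 where the lowest *Ctrl* line had 270. The mean fell from 316 ± 45.0 (SD, n = 3) to 141 ± 22.9 (SD, n = 3), which is 44.7% of *Ctrl*. The log2 fold change was -1.16 with a standard error of 0.14 (limma adjusted p = 1.5e-08) and -0.89 after correction (limma adjusted p = 2.1e-06). *Rpl10l* ranked 118 of 10524 from the lowest fold change. Of the 6 paralogs other than *Rpl39l*, it alone was called lower in all 18 alternatives, with limma adjusted p-values up to 0.013.

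*Rpl3l* (ENSMUSG00000002500.8), the striated muscle counterpart of *Rpl3*, lies on chromosome 17 from 24727820 to 24736143, on the plus strand. It was the lowest of the paralogs in *Ctrl*, with 28, 9 and 18 normalized counts, and had 10, 7 and 8 in *Tet iTKO*. The *Ctrl* lines spread widely and one of them, at 9, lay within the *Tet iTKO* range. The means were 18.3 ± 9.5 (SD, n = 3) and 8.33 ± 1.53 (SD, n = 3), and the log2 fold change of -0.93 with a standard error of 0.55 did not pass the test (limma adjusted p = 0.19). It was -0.92 after correction (limma adjusted p = 0.22). With quantile normalization the value was -1.49 with a limma adjusted p of 0.039. At this level a difference was not resolved by 3 lines per group.

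*Rpl22l1* (ENSMUSG00000039221.5), the paralog of the RNA-binding large-subunit gene *Rpl22*, lies on chromosome 3 from 28805436 to 28807424, on the plus strand. It had 335, 255 and 244 normalized counts in *Ctrl*, against 162, 147 and 122 in *Tet iTKO*. The groups did not overlap. The mean fell from 278 ± 49.7 (SD, n = 3) to 144 ± 20.2 (SD, n = 3), or 51.7% of *Ctrl*. The log2 fold change was -0.94 with a standard error of 0.14 (limma adjusted p = 1.3e-06). It shrank to -0.33 after correction and then missed the threshold (limma adjusted p = 0.063). Its transcript has 552 bases, and 57.3% of its windows of 50 bases also occurred in transcripts of 3 other annotated genes, where a read could align at more than 1 place.

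*Rps27l* (ENSMUSG00000036781.7), the small-subunit paralog regulated by p53, lies on chromosome 9 from 66946086 to 66949516, on the plus strand. It was the most abundant paralog, at 4067, 3897 and 4136 normalized counts in *Ctrl*, against 2622, 2733 and 2633 in *Tet iTKO*. The lines of a group lay close together and the groups were well apart. The mean fell from 4033 ± 123 (SD, n = 3) to 2663 ± 61.2 (SD, n = 3), or 66.0% of *Ctrl*. The log2 fold change was -0.60 with a standard error of 0.05 (limma adjusted p = 1.7e-12). The adjusted p from limma was 0.01 without a trend of variance on expression and 3.5e-05 without a filter beyond a mean above 0. After correction the value was 0.01 on the log2 scale (limma adjusted p = 0.88). Its transcript of 499 bases is the shortest of the 7.

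*Rpl36al* (ENSMUSG00000049751.6), the autosomal paralog of the large-subunit gene *Rpl36a*, lies on chromosome 12 from 69182731 to 69184083, on the minus strand. It had 687, 507 and 539 normalized counts in *Ctrl*, against 455, 478 and 475 in *Tet iTKO*. The groups did not overlap, but the lowest *Ctrl* line was close to the *Tet iTKO* lines. The means were 578 ± 96.0 (SD, n = 3) and 469 ± 12.5 (SD, n = 3), or 81.3% of *Ctrl*, giving a log2 fold change of -0.29 with a standard error of 0.09 (limma adjusted p = 0.015). In 9 of 18 alternatives *Rpl36al* did not pass. Among these, it was -0.16 without *Ctrl* replicate 1 (limma adjusted p = 0.21), -0.27 without *Tet iTKO* replicate 1 (limma adjusted p = 0.059) and -0.08 after correction (limma adjusted p = 0.58).

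*Rpl7l1* (ENSMUSG00000063888.6), related to *Rpl7* and to an assembly factor of the large subunit, lies on chromosome 17 from 46773907 to 46782672, on the minus strand. Its normalized counts were 2058, 2228 and 2254 in *Ctrl* and 1634, 1804 and 1827 in *Tet iTKO*. All *Tet iTKO* lines were below all *Ctrl* lines. The mean fell from 2180 ± 107 (SD, n = 3) to 1755 ± 105 (SD, n = 3), or 80.5% of *Ctrl*, a log2 fold change of -0.31 with a standard error of 0.06 (limma adjusted p = 3.8e-05). Its transcript is the longest of the paralogs, 2606 bases, and the correction left the value at -0.33 (limma adjusted p = 1.5e-05). Without a trend of variance on expression the adjusted p from limma was 0.056.

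The 7 parent genes, which encode the ribosomal proteins themselves, were all lower in *Tet iTKO*, beside 18.4% of all genes tested. In all 7 every *Tet iTKO* line was below every *Ctrl* line, which held for 22.9% of all genes tested. The log2 fold changes of the parents lay between -0.76 and -0.20, with a median of -0.50. *Rps27* fell most, from 5922, 5532 and 5796 normalized counts in *Ctrl* to 3187, 3584 and 3440 in *Tet iTKO* (log2 fold change -0.76, limma adjusted p = 3.1e-15). Its adjusted p from limma was 0.009 without a trend of variance on expression. *Rpl3* fell least, from 4024, 3750 and 3813 to 3308, 3486 and 3266 (log2 fold change -0.20, limma adjusted p = 0.00078). *Rpl39* had 511, 428 and 388 normalized counts in *Ctrl*, against 278, 349 and 294 in *Tet iTKO*. Its log2 fold change of -0.52 with a standard error of 0.11 (limma adjusted p = 0.00018) was -0.01 after correction (limma adjusted p = 0.94). After correction 19.1% of all genes tested were lower, and 2 of the 7 parents stayed below the threshold. These were *Rpl22* at -0.37 (limma adjusted p = 8.6e-08) and *Rpl7* at -0.16 (limma adjusted p = 0.002). *Rpl39*, *Rpl10* and *Rpl36a* lie on chromosome X, while *Rpl39l*, *Rpl10l* and *Rpl36al* lie on autosomes.

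**Figure D3:**
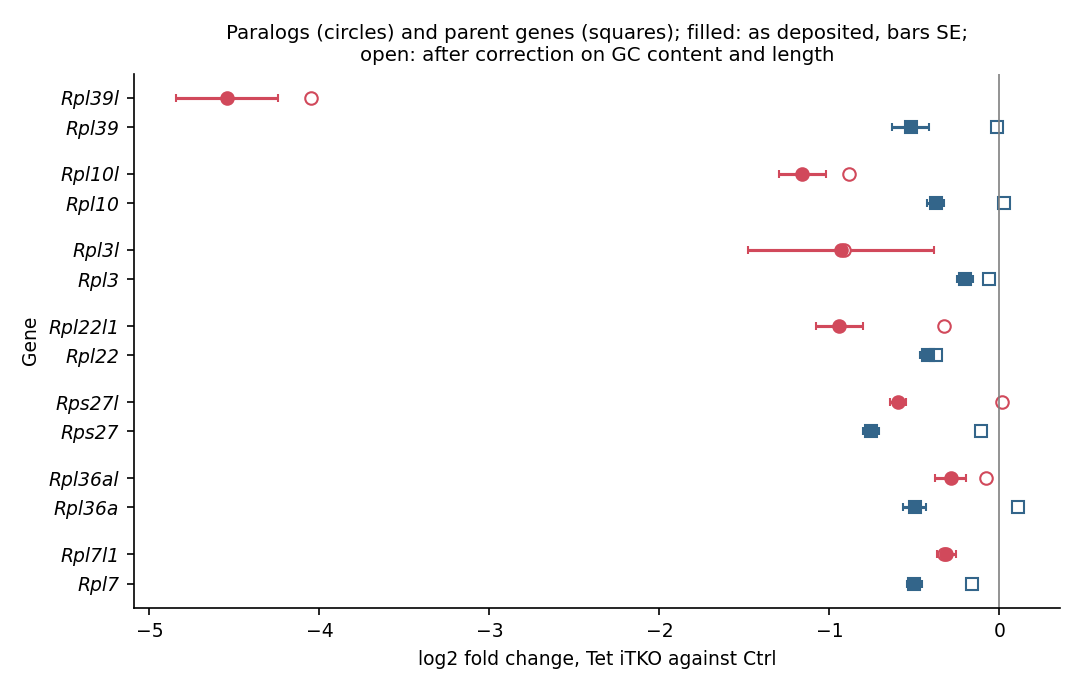
log2 fold change of each paralog (circles) above its parent gene (squares), filled as deposited with bars of 1 standard error and open after correction on GC content and transcript length. The correction brings *Rps27l*, *Rpl36al* and most parents near 0 and leaves *Rpl39l* at -4.05 and *Rpl10l* at -0.89.

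The log2 ratio of a paralog to its parent within a line was taken between values plus 1. It hardly depends on the scaling of the library, except where a gene is low, such as *Rpl3l* or *Rpl39l* in *Tet iTKO*. The log2 ratio of *Rpl39l* to *Rpl39* was -1.41, -1.36 and -0.97 in *Ctrl* and -4.95, -5.64 and -5.21 in *Tet iTKO*. It thus differed by -4.02 between the means, and by -4.04 after correction of both genes on GC content and length. The ratio of *Rpl10l* to *Rpl10* moved from -3.44 ± 0.20 (SD, n = 3) to -4.22 ± 0.24 (SD, n = 3), a difference of -0.78 that was -0.91 after correction. That of *Rpl22l1* to *Rpl22* differed by -0.53, from -3.50 ± 0.26 (SD, n = 3) to -4.03 ± 0.22 (SD, n = 3), but after correction the sign turned and the difference was 0.04. The ratio of *Rps27l* to *Rps27* was higher in *Tet iTKO* by 0.16, and by 0.12 after correction. *Rpl36al* to *Rpl36a* differed by 0.21 and *Rpl7l1* to *Rpl7* by 0.19, and both signs turned after correction, to -0.19 and -0.16. In these 5 pairs without *Rpl39l* the uncorrected ratios of the groups did not overlap, with p = 0.1 in an exact two-sided permutation test, the smallest that 3 lines against 3 allow, and 0.12 after adjustment over 6 pairs. *Rpl3l* to *Rpl3* differed by -0.73 with overlapping groups (exact permutation p = 0.3), and by -0.86 after correction. The corrected differences were not tested.

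**Figure D4:**
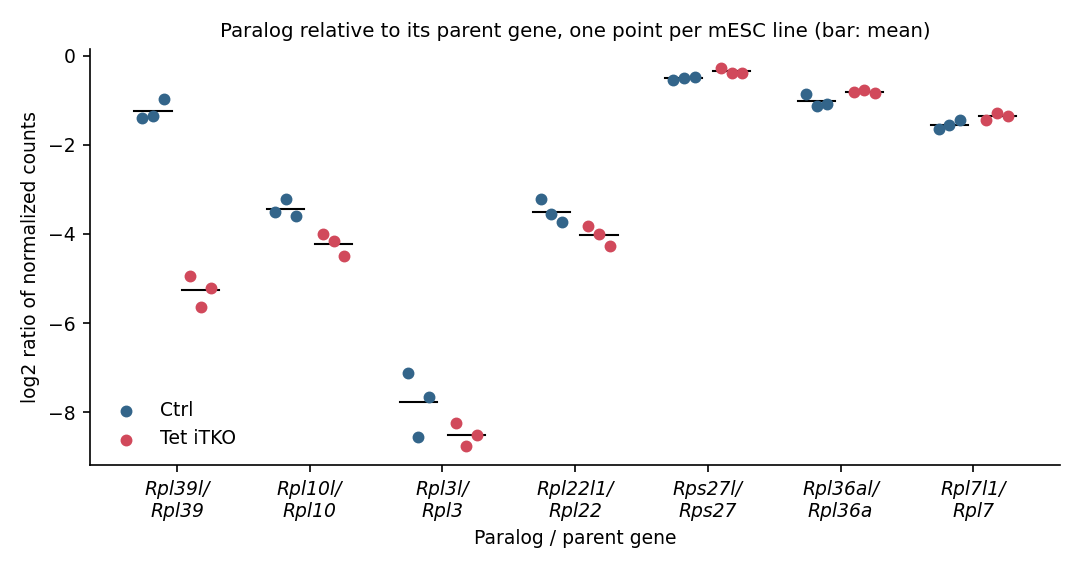
log2 ratio of the normalized counts (each plus 1) of each paralog to those of its parent gene. There is 1 point per mESC line (blue *Ctrl*, red *Tet iTKO*), with a bar at the mean. *Rpl39l* to *Rpl39* drops from -1.25 to -5.27, and the ratios of *Rps27l*, *Rpl36al* and *Rpl7l1* lie slightly higher in *Tet iTKO*, the last 2 only without the correction on GC content and length.

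Per kilobase of the longest principal transcript, a scale on which different genes can be set side by side, *Rpl39l* made up 24.3% ± 3.10 (SD, n = 3) of the sum of *Rpl39l* and *Rpl39* in *Ctrl*. In *Tet iTKO* it made up 1.74% ± 0.427 (SD, n = 3). The share of *Rpl10l* in its pair went from 7.19% ± 0.948 (SD, n = 3) to 4.30% ± 0.678 (SD, n = 3), and that of *Rpl22l1* from 24.7% ± 3.37 (SD, n = 3) to 18.5% ± 2.33 (SD, n = 3). *Rps27l* held 32.7% of its pair in *Ctrl* and 35.1% in *Tet iTKO*, *Rpl36al* 15.7% and 17.7%, *Rpl7l1* 13.2% and 14.8%, and *Rpl3l* 0.459% and 0.244%. With the shortest principal transcript, *Rpl22l1* held only 7.08% and 5.0%, *Rpl36al* 31.1% and 34.3%, and *Rpl7l1* 23.3% and 25.7%. These shares lean on which reads align uniquely. Windows of 50 bases shared with another annotated gene made up 85.4% of the *Rpl10* transcript, 85.6% of *Rpl3*, 98.7% of *Rps27* and 85.5% of *Rpl36a*, but 7.60% of *Rpl10l*, 0% of *Rpl3l*, 22.4% of *Rps27l* and 18.1% of *Rpl36al*. For *Rpl39* the share was 16.5%. Paralog and parent had no such window in common in any of the 7 pairs, and the coding identity ran from 54.5% for *Rpl7l1* to 87.9% for *Rpl36al*.

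In *Ctrl* the paralogs stood in the order *Rps27l*, *Rpl7l1*, *Rpl22l1*, *Rpl36al*, *Rpl10l*, *Rpl39l* and *Rpl3l* by normalized counts per kilobase. *Rps27l* had 8083 ± 247 (SD, n = 3), *Rpl7l1* 837 ± 40.9 (SD, n = 3), *Rpl39l* 230 ± 20.7 (SD, n = 3) and *Rpl3l* 13.3 ± 6.91 (SD, n = 3). *Rpl22l1*, at 442 to 607, and *Rpl36al*, at 397 to 538, overlapped in *Ctrl*, and the other neighbours in the order did not. In *Tet iTKO* the order was the same except that *Rpl36al*, at 368 ± 9.80 (SD, n = 3), stood above *Rpl22l1*, at 260 ± 36.6 (SD, n = 3). *Rpl39l*, at 7.45 to 9.94 per kilobase, had come down next to *Rpl3l*, at 5.09 to 7.27. With the shortest principal transcript of each gene the *Ctrl* order changes: *Rpl36al*, at 1098, stands above *Rpl22l1*, at 504, and *Rpl39l*, at 336, stands above *Rpl10l*, at 309. *Rpl39l* and *Rpl3l* in *Tet iTKO* were a few normalized counts above the value of 3 taken as the smallest that the depth can show.

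Of all genes tested, 18.4% were lower and 16.4% higher. Core ribosomal protein genes, the structural proteins of both subunits, fell as a group by count: of 77 tested, 73 were lower, 1 was higher and the median was -0.42. *Rpl32* had the largest fall (log2 fold change -0.89, limma adjusted p = 3.1e-15), followed by *Rps12* (-0.78, limma adjusted p = 3.1e-11). *Rpl29* was the member that rose (0.16, limma adjusted p = 0.016). After correction 37 of the core genes were lower and 7 higher, with a median of -0.11, beside 19.1% and 9.34% of all genes. *Rpl32* remained lower at -0.58 (limma adjusted p = 1.8e-11). *Rpl39l*, *Rpl10l*, *Rpl3l* and *Rpl22l1* had fold changes below that of *Rpl32*, the lowest of the core genes, although the standard error of *Rpl3l* is wide. After correction *Rpl22l1*, at -0.33, was no longer below *Rpl32*.

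Assembly factors of the large subunit, the pathway to which *Rpl7l1* is related, were 16 lower and 2 higher of 50 tested, with a median of -0.08, where 18.4% of all genes were lower and 16.4% higher. Their difference from the core genes was not tested. *Nip7* (-0.76, limma adjusted p = 6.7e-12) and *Tma16* (-0.47, limma adjusted p = 0.018) fell. *Senp3*, a SUMO protease, (0.31, limma adjusted p = 5.9e-05) and the helicase *Ddx54* (0.19, limma adjusted p = 0.019) rose, and *Ddx54* had the opposite sign after correction, at -0.37. After correction 19 were lower and 4 higher, with a median of -0.17, beside 19.1% and 9.34% of all genes. The p53 target genes, to which *Rps27l* is known to belong, were 6 lower and 8 higher of 33 tested, with a median of 0.06, beside the same 18.4% and 16.4% of all genes. *Tigar* (-0.60, limma adjusted p = 4e-06) and *Aen* (-0.49, limma adjusted p = 0.00013) fell, while *Zmat3* (0.71, limma adjusted p = 4.9e-06) and *Pltp* (0.65, limma adjusted p = 0.00013) rose. After correction 8 were lower and 5 higher, beside the same 19.1% and 9.34% of all genes. Without a trend of variance on expression, 8 of the assembly genes and 8 of the p53 targets were called, in place of 18 and 14.

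Of the germline genes, the setting in which *Rpl39l* and *Rpl10l* are known, 28 of 46 were tested, 10 were lower and 2 higher, and the median was -0.18. Among all genes 18.4% were lower and 16.4% higher. *Rec114* had 375, 343 and 398 normalized counts in *Ctrl*, against 92, 80 and 121 in *Tet iTKO* (log2 fold change -1.94, limma adjusted p = 3e-13). *Dazl*, an RNA-binding protein of germ cells, had 191, 264 and 240 against 113, 52 and 82 (-1.54, limma adjusted p = 4.3e-08). The 2 that rose, *Rec8* (1.14, limma adjusted p = 0.0018) and *Mov10l1* (1.41, limma adjusted p = 0.019), were picked out after their values were seen. After correction 9 were lower and 2 higher, beside 19.1% and 9.34% of all genes. Of 43 striated muscle genes, the setting of *Rpl3l*, 12 were tested. Beside the same 18.4% and 16.4% of all genes, none was lower and 2 were higher. These were *Des*, at 40, 40 and 32 normalized counts in *Ctrl*, against 71, 82 and 85 in *Tet iTKO* (1.07, limma adjusted p = 0.00085), and *Myh6*, at 0, 0 and 1 against 15, 19 and 36. *Myh6* passed the filter only through the *Tet iTKO* lines, so that its count as higher follows from the filter, and it was named after its values were seen. After correction none of the 12 was lower and 4 were higher, beside 19.1% and 9.34% of all genes. Without *Ctrl* replicate 1, 4 of the 12 were called, all higher, beside 3220 of 10569 genes, of which 1662 were lower. Without *Ctrl* replicate 3, 4 were called, 1 of them lower, beside 3367 of 10561 genes, of which 1712 were lower.

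**Figure D5:**
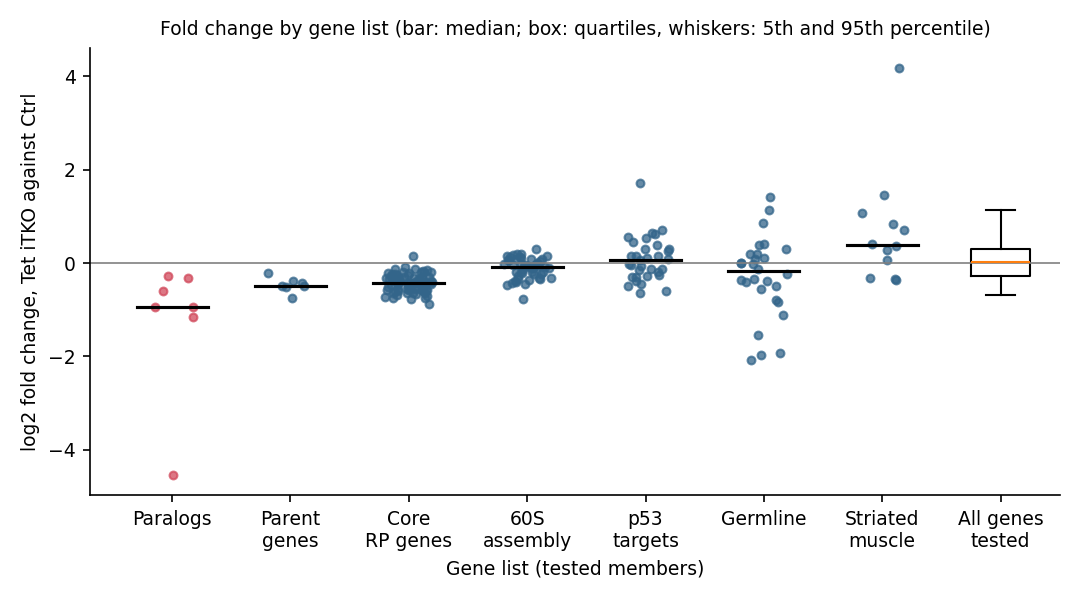
log2 fold change (*Tet iTKO* against *Ctrl*) of every tested gene of each list, 1 point per gene with a bar at the median, beside all genes tested (box at the quartiles, whiskers at the 5th and 95th percentile). The bars stand at -0.93 for the 7 paralogs, with the selected *Rpl39l* included, -0.42 for core ribosomal protein genes, -0.18 for germline genes and 0.39 for striated muscle genes, and the first 2 were -0.33 and -0.11 after correction.

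The genes around the paralogs were examined for differences of their own. Within 200 kb of *Rpl39l*, GENCODE M21 lists 11 genes, of which 4 are in the files and 1 was tested. This was *Atf7ip2*, whose start lies 22486 bases downstream on the same strand. Its normalized counts were 41, 48 and 37 in the *Ctrl* group and 39, 34 and 44 in the *Tet iTKO* group (log2 fold change -0.10, limma adjusted p = 0.82). The others were too low to test: *Emp2* had 20, 3 and 2 against 5, 4 and 4, *Tekt5* had 1, 1 and 0 against 0, 9 and 4, and *Grin2a* was at 0 in every line. *Rpl36al* starts 74 bases from *Mgat2*, a glycosyltransferase gene on the opposite strand. *Mgat2* fell too, from 311, 314 and 335 to 211, 255 and 235 (log2 fold change -0.46, limma adjusted p = 0.0014), and stood at -0.47 after correction. On the other side of *Rpl36al*, *Lrr1* had -0.04 (limma adjusted p = 0.91). No tested gene lies within 200 kb of *Rpl10l*. The nearest tested genes of the other paralogs were *Ndufb10* (-0.52, limma adjusted p = 1.2e-06) and *Msrb1* (-0.42, limma adjusted p = 0.073) beside *Rpl3l*, *Eif5a2* (-0.08, limma adjusted p = 0.92) beside *Rpl22l1*, *Rab8b* (-0.06, limma adjusted p = 0.93) and *Lactb* (-0.61, limma adjusted p = 0.11) beside *Rps27l*, and *Bicral* (-0.08, limma adjusted p = 0.64) and *2310039H08Rik* (-0.24, limma adjusted p = 0.58) beside *Rpl7l1*. *Rpl22l1*, *Rpl36al* and *Rpl7l1* each overlap 1 further annotated gene that was not analysed here, and reads in the shared stretch cannot be told apart.

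The genes whose values followed *Rpl39l* most closely over the 6 lines, among 3099 called genes with a mean of at least 50, were *Sec61b*, *Selenof*, *Ppp1r1a*, *Mrps27* and *Znhit3*, with Pearson correlations of the log2 values of 0.9987 to 0.9996. The 6 lines fall into 2 groups, and the correlation spans the difference between them. Their log2 fold changes lay between -0.84 and -0.45, far from the -4.54 of *Rpl39l*.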

How the data were processed

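Smart-Seq2 libraries of 6 mESC lines, 3 *Ctrl* and 3 *Tet iTKO*, were sequenced by the authors as paired reads of 50 bases. Per the study's methods and the submitters' processing notes, the reads were aligned with STAR, keeping unique alignments, to mm9, counted per gene with HTSeq 0.7.1 and normalized with DESeq2 1.26.0 in R 3.5.2. Counting used the setting for stranded reads although Smart-Seq2 does not keep the strand, so reads of a gene and of an antisense partner cannot be told apart. The authors deposited normalized counts rounded to whole numbers, here handled as a score and not with a count model.

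Symbols, positions, lengths and coding sequences came from GENCODE M21 (GRCm38), not the authors' build, by gene identifier, and 20775 of 22380 identifiers had a symbol. Promoters came from RefSeq. *Tet iTKO* was tested against *Ctrl* on log2(value + 1) by limma 3.58.1 (lmFit, eBayes with a trend; R 4.3.3), over genes whose mean reached 10, and p-values were adjusted by Benjamini-Hochberg over all 10524 of them. A gene was called at an adjusted p under 0.05. The trend draws the variance of a gene towards that of genes at a like level. Very small p-values thus do not rest on the spread of 3 lines per group alone. Fold changes on this scale understate those of low genes. A loess correction (span 0.3, least squares) on transcript GC content and log2 length was run as an alternative. The depth was estimated from the whole numbers that rounding skips. The settings of this estimate were adjusted after its first output was seen, it recovered 11 of 12 simulated size factors within 1%, and the factor of *Tet iTKO* replicate 3 is uncertain. Reads carry no molecular identifiers, so the floor of 3 covers counting error only, not PCR duplicates.

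The members, lists and comparisons were chosen with earlier results of these data known. Named were the paralogs and parents, the 2 called genes with the largest rise and fall in each list with a mean of at least 50, the genes nearest to *Rpl39l* by position, fold change and correlation, and the nearest tested genes of the others. *Ptprcap* and genes marked so in the text were named after their values were seen. Lines with the same replicate number did not vary together (correlations of 0.001, -0.005 and -0.003), so numbers were not used as pairs. The values of lines within a group differed by more than sampling noise (ratios of 2.59 to 3.46), and no 2 libraries were duplicates. *Rpl24*, *Rpl41*, *Noc2l* and proteins were not analysed here. Python 3.11.15 (pandas 2.3.3, NumPy 2.4.6, Biopython 1.88, matplotlib 3.10.9) handled tables, alignments and figures.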

Additional observations from a re-analysis of the deposited data

How the results depend on the processing

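The results of the fit across genes were recomputed with pseudocounts of 0.5 and 4, other filters, 3 other scalings, no trend, a replicate block, the correction on GC content and length, and without each line in turn, the ratios with both pseudocounts, the correction and without each line, and the shares with the shortest principal transcript. That transcript, the correction of the ratios and the robust form of the correction were added after seeing the data, the last because least squares moved the median of all genes to -0.06. The number of other paralogs called, 5, was 4 without a filter beyond a mean above 0 and 4 at the same total. All genes called were then 3209 of 16064 and 3752 of 10521. Other paralogs called were 3 without the trend and 2 with the correction, its robust form and the correction with the replicate block. Over all genes, these corrections gave 2996, 2716 and 3017 calls. Parents called were 2, 3 and 3 under these corrections in place of 7, core ribosomal protein genes 44, 43 and 48 in place of 74, and striated muscle genes 4, 5 and 4 in place of 2. Without the trend, 60S assembly genes called were 8 in place of 18, p53 targets 8 in place of 14 and all genes 2292 in place of 3665. Parents called were then 5 and core ribosomal protein genes 53, and *Rpl39* (limma adjusted p = 0.052) and *Rpl3* (limma adjusted p = 0.12) did not pass. With quantile normalization parents called were 6 and core genes 60, beside 3556 of all genes, and *Rpl3* did not pass (limma adjusted p = 0.49). Muscle genes called were also 1 with a mean of at least 50, 5 at the same total, 4 by the median ratio and 2 to 4 without single lines. Over all genes, calls in these settings were 3212 of 7819, 3752 of 10521, 3680 of 10505, and 2962 to 3367 without single lines. The sign turned with the correction, also with the block, for *Rps27l* (0.012), *Rpl10* (0.026) and *Rpl36a* (0.107), and in the robust form for *Rps27l* (0.013), *Rpl39* (0.005), *Rpl10* (0.061), *Rpl3* (0.023) and *Rpl36a* (0.109). The cause was not tested. With the correction the log2 ratios to the parent turned sign for *Rpl22l1* (0.042), *Rpl36al* (-0.185) and *Rpl7l1* (-0.163), and that of *Rpl39l* was -3.58 at a pseudocount of 4. With the shortest transcript, shares in *Ctrl* and *Tet iTKO* were 31.9% and 2.52% for *Rpl39l*, 7.08% and 5.0% for *Rpl22l1*, 31.1% and 34.3% for *Rpl36al*, and 23.3% and 25.7% for *Rpl7l1*. Without single lines, 4 or 5 other paralogs were called and *Rpl39l* stayed between -4.63 and -4.45. The replicate block alone left 5 other paralogs and 7 parents called, changed no call among these genes, and gave 3742 calls over all genes. The depth limits *Rpl3l* most, at 28 or fewer normalized counts.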

Other observations

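Other genes with ribosomal protein names outside the 7 paralogs, picked after their values were seen, did not move alike. *Rps4l*, named after a small-subunit gene, had 4241, 4253 and 4040 normalized counts in *Ctrl*, against 2606, 2760 and 2797 in *Tet iTKO*, while *Rps4x* had 3786, 3268 and 3227 against 3077, 3176 and 3110. *Rpl6l* stood at 6, 6 and 7 against 8, 7 and 7. *Rps27rt*, a retrogene copy related to *Rps27*, had 17, 21 and 20 against 19, 7 and 10, and *Rpl10-ps3* had 5, 4 and 7 against 1, 2 and 1.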
